A study of Mus musculus with 4 samples.

Results

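TRBV14, also called Vβ13, is one of the variable segments of the mouse T-cell receptor β locus, and the receptors that use it are described here library by library. A clonotype is one rearrangement, told apart by the bases of its CDR3 and by the V and J used, and its count is the number the authors' clonotype tables give it. TRBV14 receptors were the clonotypes whose first listed V segment was TRBV14 and whose CDR3 read through in frame with no stop codon. They numbered 8947 of 238470 in-frame clonotypes summed over the 4 libraries. TRBV14 was chosen by its share of counts, which was higher in either Vsig4-deficient library than in either wild-type one. The shares by genotype are therefore descriptions with no test.

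The 4 libraries came from CD8+ T cells sorted out of mouse livers that carried metastases of MC38, 14 days after the tumour cells were injected. MC38 is a colon adenocarcinoma line, although the sample labels call the tumours melanomas. One group was wild-type mice and the other was Vsig4-/- mice, with 2 libraries each; all mice carried the tumour and none of the libraries came from a tumour-free liver. Vsig4 encodes a complement receptor of liver macrophages, so the gene is missing from the host and is not one that T cells are known for. Strain, age and sex were not given in the sources used here, nor whether a library held 1 animal or several. P-values below therefore measure only the spread between these libraries, which may be technical. The assay read β-chain transcripts alone, so neither the Vsig4 genotype nor the CD8+ sort could be checked against marker transcripts.

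A β chain is assembled in the thymus by joining 1 V, 1 D and 1 J segment, with bases trimmed from the segment ends and others inserted between them. The junction encodes the CDR3 loop, which in most receptors lies over the presented peptide, whereas the V segment alone encodes CDR1 and CDR2. A T cell that divides passes its rearrangement to its daughters, so a clone appears as one sequence with many counts. In these RNA libraries, more cells of a clone and more β-chain RNA per cell cannot be told apart. In-frame counts totalled 875201 and 857452 in wild-type libraries and 958198 and 1227914 in Vsig4-deficient libraries, over 47017 to 73769 in-frame clonotypes. Whether a count is a read or a molecule was not given in the sources used here, and the intervals below cover counting error only. Where 4 values stand in a row, the wild-type libraries 1 and 2 come first and libraries 1 and 2 without Vsig4 follow.

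Trbv14 lies on chromosome 6 at chr6:41135167-41135616 of GRCm38.p6, between Trbv13-3 (chr6:41130147-41130585) and Trbv15 (chr6:41141211-41141658). The sequence it lends to the CDR3 separates it from both neighbours and fixes what an untrimmed TRBV14 junction looks like. The lines below give the V part of the CDR3 where the tables recorded no deleted V base, 5′ to 3′, with the bases after the first 11 in capitals.
TRBV13-3: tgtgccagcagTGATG
TRBV14: tgtgccagcagTTTCT
TRBV15: tgtgccagcagTTTAGC
The TRBV14 form was found in 477 of 489 such TRBV14 rearrangements (97.5%). All 3 ends start with the codons for the conserved cysteine and alanine, and TRBV14 then reads on towards serine and phenylalanine, where TRBV13-3 reads towards serine and aspartate.

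Single CDR3 sequences are called clonotypes P to Y here, in no order of meaning. The next lines show leading TRBV14 CDR3 sequences of each library, together with clonotype Y, a smaller clonotype found in all 4. The sequences of clonotypes P, S and X were also listed in all 4 libraries. A handful of leading sequences from the Vsig4-deficient libraries make up much of the difference between the libraries. Capitals mark the bases between the V part and the J part, that is, what is left of the D segment together with inserted bases.
Clonotype P, largest of Vsig4-deficient library 1: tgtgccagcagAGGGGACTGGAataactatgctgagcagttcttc
Clonotype Q, next largest of Vsig4-deficient library 1: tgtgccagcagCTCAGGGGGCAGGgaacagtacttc
Clonotype R, the third of Vsig4-deficient library 1: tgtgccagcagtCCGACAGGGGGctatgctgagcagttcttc
Clonotype S, largest of Vsig4-deficient library 2: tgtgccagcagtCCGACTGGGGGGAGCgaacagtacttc
Clonotype T, next largest of Vsig4-deficient library 2: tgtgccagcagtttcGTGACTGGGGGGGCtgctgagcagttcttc
Clonotype W, largest of wild-type library 1: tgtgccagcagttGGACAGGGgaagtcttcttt
Clonotype X, largest of wild-type library 2: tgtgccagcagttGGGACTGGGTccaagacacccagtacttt
Clonotype Y, found in all 4 libraries: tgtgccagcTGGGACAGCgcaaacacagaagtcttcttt
The leading sequences of the Vsig4-deficient libraries differ from one another. Clonotypes R and S, from different libraries, end in different J segments.

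By counts, TRBV14 took 1.28% (95% Wilson interval 1.25% to 1.30%) of in-frame counts in wild-type library 1, and the second wild-type library stood at 1.48% (1.45% to 1.51%). The share was 3.08% (3.05% to 3.12%) in Vsig4-deficient library 1, and the second of that genotype stood at 2.07% (2.04% to 2.09%). The means were 1.38% ± 0.144 (SD, n = 2) without the deletion and 2.58% ± 0.719 (SD, n = 2) with it, a ratio of 1.87. The difference in means was 1.2 percentage points. Leaving out Vsig4-deficient library 1 made it 0.689, and leaving out library 2 of that genotype made it 1.71. Of the 20 TRBV segments with enough clonotypes, 3 (15%) had their 2 highest count shares in the Vsig4-deficient group, and TRBV14 had the highest ratio of the 20. This ordering is what the choice of TRBV14 used.

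With each clonotype counted once, TRBV14 stood in the opposite order. It made up 3.83% and 3.91% of in-frame clonotypes in wild-type libraries and 3.75% and 3.54% in Vsig4-deficient ones. Means were 3.87% ± 0.0535 and 3.64% ± 0.151 (SD, n = 2 each), a difference of -0.226 percentage points, or -0.119 without Vsig4-deficient library 2. In 5 of 20 TRBV segments (25%) the 2 lowest clonotype shares were those of the Vsig4-deficient group. TRBV14 was the segment ranked 11 of 20 by mean share of clonotypes and also by mean share of counts, so it is a segment of middling use.

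**Figure D1:**
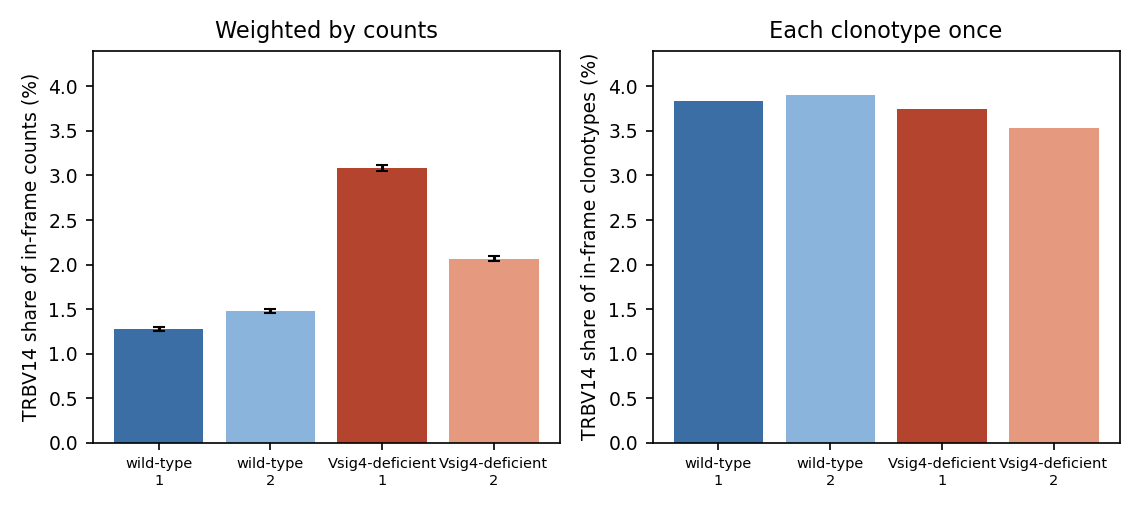
TRBV14 share of in-frame counts (left, %) and of in-frame clonotypes (right, %) in each of the 4 libraries, with 95% Wilson intervals as bars on the left for counting error only. By counts the Vsig4-deficient libraries stand at 3.08% and 2.07% above 1.28% and 1.48%, whereas by clonotypes all 4 lie between 3.54% and 3.91%.

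The typical TRBV14 clonotype was smaller than that of the other segments pooled in every library. Its median count was 4 and 3 in wild-type libraries and 3 and 2 in Vsig4-deficient libraries, against 7, 6, 5 and 3 for the clonotypes of all other TRBV segments in the same order. The mean gap was -2.25 counts ± 0.957 (SD, n = 4 libraries), lower in 4 of 4, with a two-sided exact sign-flip permutation p of 0.125 (0.141 adjusted over the 9 such comparisons). That p of 0.125 is the smallest that 4 pairs allow. The low median was not particular to TRBV14. Among the 20 TRBV segments it ranked 13, 13, 13 and 9 from the largest, with ties, and TRBV4 had the same medians. Clonotypes with a single count made up 23.3%, 22.6%, 26.3% and 38.5% of TRBV14 clonotypes against 21.3%, 17.4%, 20.7% and 32.8% of the others, higher for TRBV14 in each of the 4 libraries.

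Large TRBV14 clonotypes were found in Vsig4-deficient libraries. Of the clonotypes above 0.1% of in-frame counts, TRBV14 had 0 of 30 and 0 of 21 in wild-type libraries, which allows shares of up to 10% and 14.3%. It had 3 of 71 (4.23%) in Vsig4-deficient library 1 and 2 of 60 (3.33%) in Vsig4-deficient library 2, values that lie under those limits. The number of such clonotypes over all segments was also higher in both Vsig4-deficient libraries than in both wild-type libraries. Between 0.01% and 0.1%, TRBV14 had 5 of 1040, 3 of 332, 23 of 416 and 12 of 639 clonotypes. That was 0.481%, 0.904%, 5.53% and 1.88%, with Vsig4-deficient library 1 highest. The size classes rest on the same counts that chose TRBV14, so these values are description only. How many other segments show the same order in this class was not counted.

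Split by size, the counts of TRBV14 stood in opposite orders among large and small clonotypes. Clonotypes above 0.1% held 0%, 0%, 1.48% and 0.953% of in-frame counts, and those between 0.01% and 0.1% held 0.155%, 0.0746%, 0.820% and 0.303%. Clonotypes of at most 0.01% held 1.12% and 1.41% in wild-type libraries but 0.786% and 0.811% in Vsig4-deficient libraries. Within that small class, however, TRBV14 made up 1.59%, 1.62%, 1.64% and 1.71% of the counts of all segments in the order above. The small class as a whole held 70.7% and 87.0% of in-frame counts in wild-type libraries and 47.9% and 47.3% in Vsig4-deficient libraries.

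**Figure D2:**
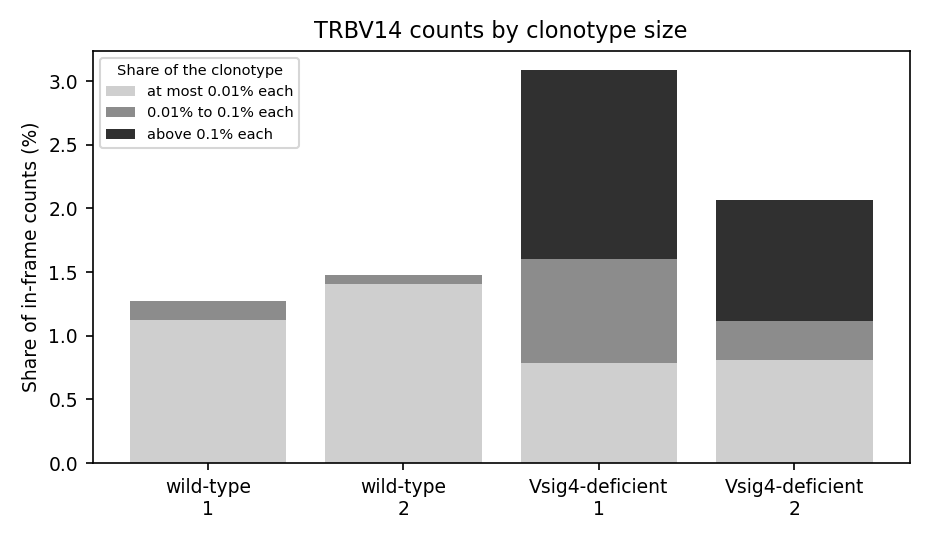
Share of in-frame counts (%) held by TRBV14 in each library, stacked by the share of the single clonotype: at most 0.01%, 0.01% to 0.1%, and above 0.1%. The dark block above 0.1% is 1.48% and 0.953% in Vsig4-deficient libraries and 0% in wild-type libraries, while the pale block is the taller one in wild-type libraries.

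Few clonotypes carried the difference in counts. The largest TRBV14 clonotype held 6.35% and 3.55% of TRBV14 counts in wild-type libraries and 31.3% and 37.3% in Vsig4-deficient libraries. The 10 largest held 15.2%, 6.94%, 63.4% and 58.2%. Over the other TRBV segments together the 10 largest held 9.04%, 5.21%, 25.4% and 29.1% of their counts, the same order of genotypes at lower values. To reach 50% of TRBV14 counts took 259 and 574 clonotypes in wild-type libraries and 4 in each Vsig4-deficient library.

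In what follows, shares are still taken of all in-frame counts of a library, with the left-out clonotypes kept in that total. They are not shares among the remaining clonotypes. Leaving out the single largest TRBV14 clonotype of every library brought the shares to 1.2%, 1.43%, 2.12% and 1.30%, and the genotypes then overlapped. The difference in means was then 0.395 percentage points, 33.0% of its size. Without the 2 largest it was 0.154 points (12.8%), and without the 3 largest 0.0554 points (4.63%). Without the 4 largest, the Vsig4-deficient mean was no longer above the wild-type mean. Without the 10 largest the shares were 1.08%, 1.38%, 1.13% and 0.863%, a difference of -0.233 points. Counted against the wild-type mean, the 6 largest clonotypes of Vsig4-deficient library 1 held as many counts as its whole excess of 1.71 points. In Vsig4-deficient library 2 the largest alone covered its excess of 0.689 points.

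**Figure D3:**
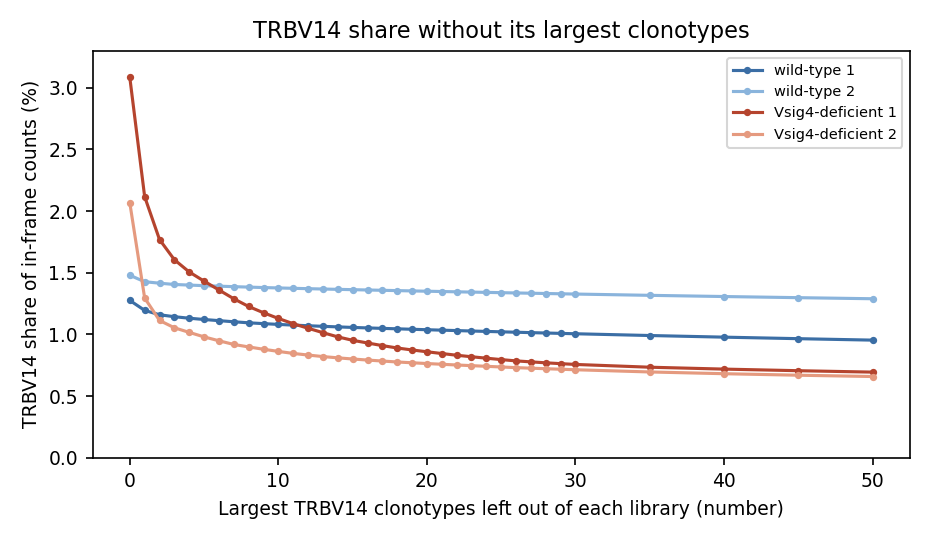
TRBV14 share of in-frame counts (%, vertical axis) after leaving out the largest TRBV14 clonotypes of each library (number, horizontal axis), 1 line per library. The total of in-frame counts that the share is taken of was left unchanged. Both Vsig4-deficient lines drop steeply over the first few clonotypes, and at 10 left out they stand at 1.13% and 0.863% beside 1.08% and 1.38% for the wild-type libraries.

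In Vsig4-deficient library 1 the largest TRBV14 clonotype was clonotype P, joined to TRBJ2-1, with 9261 counts (0.967% of in-frame counts, rank 8 of the whole library). Clonotype Q with TRBJ2-7 had 3329 counts (0.347%, rank 28) and clonotype R with TRBJ2-1 had 1568 counts (0.164%, rank 48). A TRBJ2-5 clonotype of 950 counts and a TRBJ2-1 clonotype of 713 counts came next. All 5 used a segment of the second J cluster.

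In Vsig4-deficient library 2 the largest was clonotype S, joined to TRBJ2-7, with 9466 counts (0.771%, also rank 8). Clonotype T with TRBJ2-1 had 2236 counts (0.182%, rank 31). A TRBJ1-1 clonotype of 730 counts and a pair of TRBJ2-7 clonotypes with 457 and 448 counts followed. The 2 libraries thus reached their TRBV14 share through different leading receptors.

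The leading wild-type clonotypes were smaller. Clonotype W with TRBJ1-1 had 709 counts in wild-type library 1 (0.0810%, rank 40). The next 4 there had 309 (TRBJ1-1), 139 (TRBJ2-5), 107 (TRBJ2-5, clonotype X) and 90 counts (TRBJ2-3). In wild-type library 2, clonotype X with TRBJ2-5 led with 450 counts (0.0525%, rank 38), and the next 4 had 100 (TRBJ2-7), 90 (TRBJ2-1), 42 (TRBJ2-3) and 41 counts (TRBJ2-7).

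The same nucleotide sequences were looked up in the other libraries. All 5 leading clonotypes of Vsig4-deficient library 1 were also listed in Vsig4-deficient library 2, with 161, 76, 52, 26 and 10 counts, at 1.09% to 2.59% of their share in the first. Wild-type library 1 listed 4 of the same 5, where the median over the 5 was 0.0658% of their share, and wild-type library 2 listed 1. In the other direction, 1 of the 5 leading clonotypes of Vsig4-deficient library 2 was listed in Vsig4-deficient library 1, namely clonotype S with 15 counts (0.203% of its share). Wild-type library 1 listed 1 of these 5, at 0.104% of its share, and wild-type library 2 listed 2, at up to 0.785%. Whether such low counts come from separate cells or from sequences carried between libraries was not tested. Leaving out rearrangements with under 1% or under 5% of their share in another library kept the direction of the TRBV14 difference in counts. Clonotype X behaved otherwise: it had 107, 450, 76 and 212 counts, or 0.0122%, 0.0525%, 0.00793% and 0.0173% of in-frame counts, with no genotype apart from the other.

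TRBV14 was joined to TRBJ1-2, a segment of the first J cluster, less often than other V segments were. TRBJ1-2 was used by 2.31%, 2.57%, 3.57% and 3.47% of TRBV14 clonotypes, against 6.31%, 6.51%, 6.70% and 7.0% of the clonotypes of other segments in the same libraries. The 4 TRBV14 values all lay below the 4 others. In edgeR's quasi-likelihood test with the library as a block the log2 ratio was -1.16 ± 0.13 (SE), with a Benjamini-Hochberg adjusted p of 1.17e-17 over the 240 TRBV and TRBJ pairs. It was the lowest TRBJ1-2 value of the 20 TRBV segments, followed by TRBV5 and TRBV17 at -1.14 each, and the differences between these neighbours were not tested. Trbj1-2 lies at chr6:41534001-41534048, 3′ of Trbd1 at chr6:41533201-41533212 and of Trbj1-1 at chr6:41533864-41533911.

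Across the 12 J segments, TRBV14 departed from the other segments in 4 (33.3%), 3 higher and 1 lower. Over all 240 pairs 112 passed the same threshold of an adjusted p under 0.05 (46.7%), 22.9% of pairs higher and 23.8% lower, so TRBV14 departed in J use about as often as pairs did in general. The median log2 ratio was 0.04 over the 12 TRBV14 pairs and 0.02 over all pairs. TRBJ2-5 was used by 14.5%, 13.0%, 12.8% and 13.5% of TRBV14 clonotypes against 11.9% to 12.1% of the others (log2 ratio 0.16 ± 0.04 SE, edgeR adjusted p 0.00137). TRBJ2-2 was used by 6.64%, 6.38%, 6.41% and 7.14% against 5.68% to 5.91% (log2 ratio 0.21 ± 0.06 SE, edgeR adjusted p 0.00277). TRBJ2-1 was used by 15% to 15.9% against 13.7% to 15.2% (log2 ratio 0.11 ± 0.04 SE, edgeR adjusted p 0.0244), and these ranges overlap.

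The TRBJ2-1 call was lost with TMM scaling (adjusted p 0.0879) and with DESeq2 (0.362), and also without wild-type library 2 (0.0974) or without Vsig4-deficient library 1 (0.108). TRBJ2-5 missed the threshold with DESeq2 (adjusted p 0.0770) and without clonotypes of a single count (0.0578). DESeq2 called 1 J segment of TRBV14 higher and 2 lower. The TRBJ1-2 value passed under all 13 alternatives, between -1.95 and -1.09.

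The other 8 J segments of TRBV14 did not pass. TRBJ2-7, the most used, stood at 19.9%, 22.4%, 20.2% and 18.5% against 18.4% to 19.9% (log2 ratio 0.08, edgeR adjusted p 0.0838). TRBJ1-1 stood at 9.07% to 9.33%, TRBJ1-3 at 3.02% to 3.87%, TRBJ1-4 at 5.69% to 6.42%, and TRBJ1-5 at 1.59% to 2.58%. TRBJ1-6 stood at 2.60% to 3.83%, TRBJ2-3 at 6.69% to 8.54%, and TRBJ2-4 at 9.02% to 10.2%. Together the first cluster took 25.2%, 25.6%, 28.2% and 29.2% of TRBV14 clonotypes and 30.9%, 31.5%, 32.4% and 31.7% of the others.

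**Figure D4:**
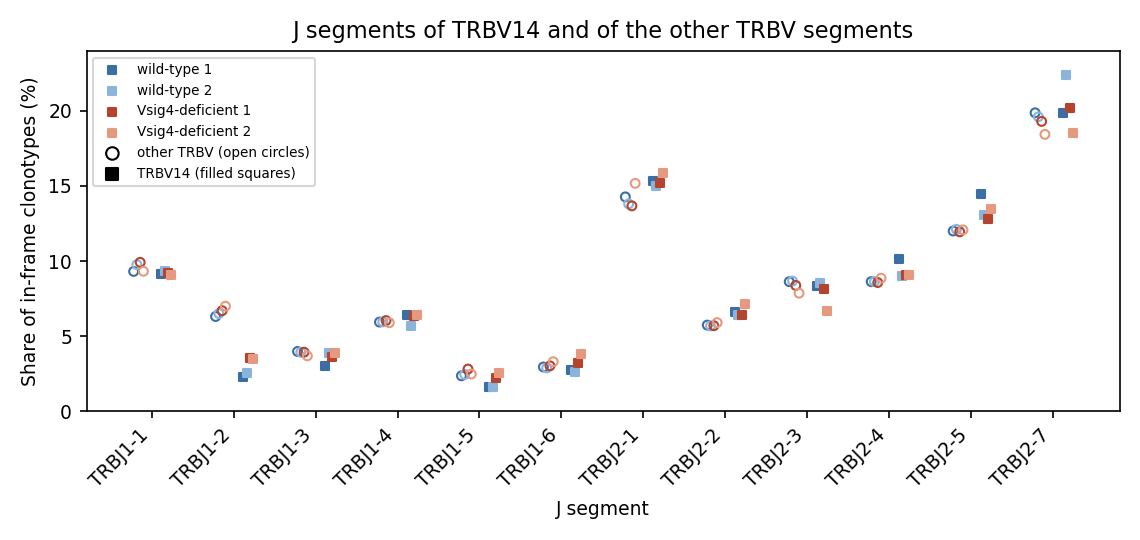
Share of in-frame clonotypes (%) that use each of the 12 J segments, for TRBV14 (filled squares) and for all other TRBV segments (open circles), 1 colour per library. TRBJ1-2 shows the one clear gap, with TRBV14 at 2.31% to 3.57% and the others at 6.31% to 7.0%.

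Between genotypes, no J segment of TRBV14 passed. With edgeR, 0 of 12 TRBV14 pairs and 0 of 240 pairs in all (0%) had an adjusted p under 0.05, and DESeq2 also called 0 of the 12. At an unadjusted p under 0.05 there were 3 of 12 TRBV14 pairs (25%) against 17 of 240 (7.08%). These were TRBJ1-2, TRBJ1-5 and TRBJ1-6, all of the first cluster and all with the higher values in Vsig4-deficient libraries. The median log2 ratio was 0.06 over the 12 TRBV14 pairs and 0.02 over all pairs. For TRBJ1-2 the means were 2.44% ± 0.186 and 3.52% ± 0.0748 (SD, n = 2 each; log2 ratio 0.51 ± 0.21 SE, edgeR adjusted p 0.441). TRBJ1-5 stood at 1.59% and 1.60% against 2.21% and 2.58% (adjusted p 0.504), and TRBJ1-6 at 2.74% and 2.60% against 3.23% and 3.83% (0.580). The interaction of genotype with TRBV14 against other segments was called in 0 of 12 J segments (edgeR, smallest adjusted p 0.895). At an unadjusted p under 0.05 there were 2 of 12, against 4.58% of all pairs.

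Weighted by counts, the J clusters stood in the reverse order. The first cluster held 27.7% and 22.1% of TRBV14 counts in wild-type libraries and 9.72% and 16.6% in Vsig4-deficient libraries. In the latter, TRBJ2-1 held 43.9% of TRBV14 counts in library 1, the library led by clonotype P, and TRBJ2-7 held 50.3% in library 2, led by clonotype S. The largest TRBJ1-2 receptors of TRBV14 had 23, 19, 12 and 17 counts, among only 42, 74, 63 and 86 such clonotypes. Their median counts were 4, 3, 3 and 2, the same as over all TRBV14 clonotypes.

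The D segment could be named in 77.3%, 77.5%, 75.7% and 75.8% of TRBV14 clonotypes, close to the 76.1% to 76.3% of the others. Of these, TRBD2 made up 39.0%, 39.8%, 36.2% and 34.8% in TRBV14 and 43.6%, 43.5%, 41.5% and 41.8% in the others. The mean gap was -5.15 percentage points ± 1.42 (SD, n = 4), lower in 4 of 4 libraries, with an exact sign-flip permutation p of 0.125 (adjusted 0.141), the smallest possible. Within the second J cluster, which both D segments can join, TRBD2 made up 47.8%, 48.6%, 45.5% and 43.7% against 57.3%, 57.6%, 55.7% and 55.5%. That gap was -10.1 points ± 1.25 (SD, n = 4; exact permutation p 0.125, adjusted 0.141). With the first J cluster, TRBD2 was still listed in 8.49% to 10% of TRBV14 clonotypes with a D segment, and in 6.36% to 7.37% of the others, so there TRBV14 stood higher in each of the 4 libraries. Trbd2 (chr6:41542163-41542176) lies 3′ of that cluster, so ordinary deletional joining does not make such pairs, and these calls on short D remnants were not checked further.

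Between genotypes the TRBD2 share of TRBV14 was 39.4% ± 0.619 and 35.5% ± 1.02 (SD, n = 2 each). The difference of -3.91 points had a two-sided exact permutation p of 0.333 (adjusted 0.5 over 3 comparisons), the smallest p that 2 against 2 libraries allow. The other segments also stood lower in that genotype. With counts as weights, the TRBV14 values were 33.8% and 42.3% against 51.3% and 68.7%, in the reverse order; clonotypes P and S, the leading ones, both carry TRBD2.

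TRBV14 CDR3 loops were shorter on average than those of other segments in 4 of 4 libraries. With each clonotype counted once, the mean length was 13.70, 13.68, 13.71 and 13.70 amino acids, against 13.95, 13.93, 13.95 and 13.96 for the other segments. The gap was -0.252 residues ± 0.00774 (SD, n = 4), the same sign in 4 of 4 libraries, with an exact sign-flip permutation p of 0.125 (adjusted 0.141). TRBV14 ranked 4 of 20 segments from the shortest. Between genotypes the means differed by 0.0184 residues (exact permutation p 0.333, adjusted 0.5), well under the gap to other segments. Weighted by counts the mean lengths were 13.4, 13.6, 13.9 and 13.4.

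By length class, loops of 11 to 13 residues were more frequent in TRBV14 and loops of 15 to 18 less frequent. The shorter classes of 9 and 10 residues did not pass, with log2 ratios of -0.26 and -0.20. Loops of 13 residues made up 22.1%, 21.7%, 21.0% and 22.7% of TRBV14 clonotypes against 17.7% to 18% of the others (log2 ratio 0.29 ± 0.04 SE, edgeR adjusted p 8.39e-10). Loops of 11 and 12 residues were also higher (log2 ratios 0.26 and 0.30). Loops of 16 residues made up 6.37%, 6.21%, 6.35% and 6.57% against 9.55% to 9.79% (log2 ratio -0.60 ± 0.09 SE, edgeR adjusted p 4.08e-11). Those of 15, 17 and 18 residues were lower as well (-0.24, -1.03 and -0.99). The most frequent length was 14 in TRBV14 and in the others, at 32.0% and 30.7% on average (log2 ratio 0.06, edgeR adjusted p 0.0503).

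In all, 7 of 10 length classes of TRBV14 passed (70%), 3 higher and 4 lower, against 143 of 202 over all segments (70.8%; 34.7% higher and 36.1% lower). The median log2 ratio was -0.22 over the 10 TRBV14 classes and -0.04 over all pairs. DESeq2, whose scaling raised the TRBV14 log2 values by a median of 0.13, called 4 higher and 3 lower: it added length 14 and lost length 15 (log2 ratio -0.11, adjusted p 0.203). Between genotypes, edgeR called 0 of 10 classes of TRBV14 and 0 of 202 in all (0%), and DESeq2 called 0 of the 10. At an unadjusted p under 0.05 there were 0 of 10 against 21 of 202 (10.4%). The interaction of genotype with TRBV14 was called by edgeR in 0 of 10 classes, and in 0 at an unadjusted p under 0.05 against 7.43% of all pairs.

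**Figure D5:**
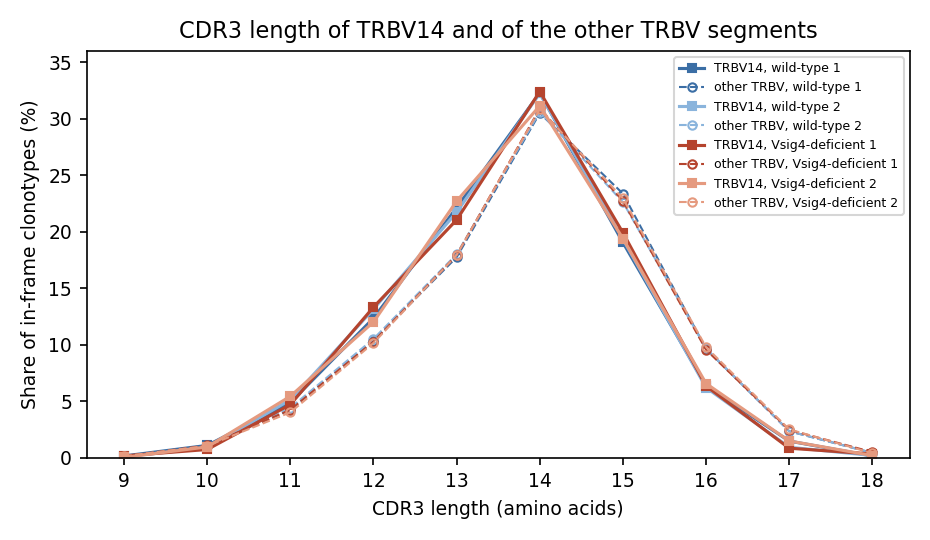
Share of in-frame clonotypes (%) by CDR3 length in amino acids, for TRBV14 (filled squares, solid lines) and for all other TRBV segments (open circles, dashed lines), 1 colour per library. The 4 TRBV14 lines lie above the others at 11 to 13 residues and below them at 15 to 17, and the genotypes lie on top of each other.

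TRBV14 CDR3s kept 13.0, 12.9, 12.9 and 12.9 V bases on average against 13.9 in the other segments of each library, a gap of -0.973 bases ± 0.0522 (SD, n = 4; exact sign-flip permutation p 0.125, adjusted 0.141). Between the V and the J part they held 0.276 bases ± 0.0735 more (SD, n = 4; exact permutation p 0.125, adjusted 0.141). The J part differed by -0.0609 bases ± 0.0716, with that sign in 3 of 4 libraries (exact permutation p 0.25). In 23.4%, 24.8%, 24.8% and 24.4% of TRBV14 clonotypes the V part stopped after 11 bases, which is the stretch in lower case in the V ends shown above, against 11.2% to 11.5% of the others. A further 21.0% to 22.3% kept 14 bases.

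The V end shows in the fifth residue of the loop. Phenylalanine, which the uncut TRBV14 end encodes there, was found in 32.5%, 29.3%, 31.3% and 29.9% of TRBV14 clonotypes and in 1.94% to 2.34% of the others. Leucine followed at 17.9% to 20.7% and proline at 14.3% to 15.2%. Aspartate, encoded by the TRBV13-3 end, stood at 1.87% to 2.38% in TRBV14 and at 18.3% to 20.7% in the others. Loops starting with cysteine, alanine, serine and serine made up 86.3%, 86.4%, 87.9% and 86.4% of TRBV14 clonotypes against 64.7% to 68.1% of the others. Clonotype P, the largest TRBV14 clonotype of Vsig4-deficient library 1, is among the minority with another start.

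Out-of-frame rearrangements, which make no receptor chain and were not used to choose TRBV14, gave a check of the segment outside the protein. TRBV14 had 78 of 4778, 122 of 7693, 90 of 4993 and 79 of 4922 of them, or 1.63%, 1.59%, 1.80% and 1.61%. The genotypes overlapped, with a difference of 0.0946 percentage points (exact permutation p 0.667), and the sign turned without Vsig4-deficient library 1 (-0.00413). For every 100 in-frame TRBV14 clonotypes there were 4.28, 4.23, 5.10 and 3.19 out-of-frame ones, against 10.3, 10.7, 10.8 and 7.16 for other segments. The gap of -5.54 ± 1.08 (SD, n = 4) had an exact sign-flip permutation p of 0.125 (adjusted 0.141). TRBV14 ranked 1, 1, 2 and 2 of 20 from the lowest. By counts, TRBV14 held 0.540%, 0.578%, 2.20% and 0.694% of out-of-frame counts, and a single sequence of 549 counts made up most of the value in Vsig4-deficient library 1.

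TRBJ1-2 also stood low among the few out-of-frame TRBV14 rearrangements. It was used in 4 of 78, 6 of 122, 2 of 90 and 2 of 79, or 5.13%, 4.92%, 2.22% and 2.53%. Other segments used it in 6.32%, 6.35%, 6.34% and 6.65% of theirs, above the TRBV14 value in each library. The TRBV14 numbers are small, and this gap was not tested. Stop-codon rearrangements of TRBV14 numbered 6, 8, 2 and 1, too few to divide further.

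TRBV14 receptors were mostly private to one library. Of the TRBV14 CDR3 amino acid sequences, 7065 (90.8%) were found in 1 library, 617 (7.93%) in 2, 84 (1.08%) in 3 and 19 (0.244%) in all 4. For other segments these shares were 84.5%, 12%, 2.64% and 0.865%. Per library, 18.9%, 15.9%, 21.1% and 17.9% of the distinct TRBV14 amino acid sequences, each taken with its J segment, were found in another library. The values for other segments, with V and J, were 31.5%, 26.2%, 32.6% and 29.4%. The gap was -11.5 percentage points ± 0.961 (SD, n = 4; exact sign-flip permutation p 0.125, adjusted 0.141). Between pairs of libraries, 197 sequences were shared by the wild-type libraries (11.3% and 7.14% of each) and 205 by the Vsig4-deficient libraries (11.9% and 8.53% of each). Pairs across genotypes shared 99 to 190, or 5.54% to 8.92% of a library's sequences. Within each library, the partner of the same genotype had the higher percentage. Wild-type library 1 shared 11.3% with its partner against 5.66% and 7.95% across genotypes, and wild-type library 2 shared 7.14% against 5.54% and 6.88%. Vsig4-deficient library 1 shared 11.9% against 5.77% and 8.92%, and library 2 of that genotype 8.53% against 5.78% and 7.91%. This order was not tested. These numbers also depend on library size, and sequences carried between libraries were not tested for.

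The 19 sequences found in all 4 libraries held 2.13% and 4.77% of TRBV14 counts in wild-type libraries and 37.4% and 39.7% in Vsig4-deficient libraries. The 5 with the highest mean share were those of clonotypes P, S, R, X and Y. The first 3 owe that place to 1 library each, as the counts above show. Clonotype Y with TRBJ1-1 had 22, 6, 41 and 78 counts. A loop of 10 residues among the 19, joined to TRBJ2-7, was encoded by 2 to 4 different nucleotide sequences in each library, and its most widely listed form is tgtgccagcagtttGGGtgaacagtacttc, with 3 bases (capitals) between V and J. The 19 had 7.65 to 8.19 bases between V and J on average, against 9.67 to 9.85 in the remaining TRBV14 clonotypes. None of the 19 used TRBJ1-2, but only 2.31% to 3.57% of all TRBV14 clonotypes did, so this hardly sets them apart.

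Shares of counts over the 4 libraries were compared by Euclidean distance on centred log2 values. The TRBV segments nearest to TRBV14 were TRBV1 (0.626), TRBV12-2 (0.786) and TRBV13-2 (0.898). These shares are also what chose TRBV14. TRBV1 held 8.39%, 10.7%, 12.6% and 11.8% of in-frame counts, and TRBV12-2 held 4.11%, 4.23%, 5.03% and 6.30%. Both thus stood higher in either Vsig4-deficient library than in either wild-type one. Their log2 ratios of means were 0.35 and 0.44, against 0.90 for TRBV14. TRBV13-2 held 21.6%, 19.5%, 22.8% and 20.3% of in-frame counts, with no genotype apart from the other (log2 ratio of means 0.07). By J use, as the mean Jensen-Shannon distance within libraries, the nearest were TRBV5 (0.0749), TRBV4 (0.0760) and TRBV16 (0.0899). The 3 nearest by one measure were not among the 3 nearest by the other.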

How the data were processed

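The authors deposited 1 table of β-chain clonotypes per library, with a count per clonotype, a fraction that equals the count over the table's total, and base quality scores, per the file headers. No source used here names the program that made them; the build mm10 is credited to the submitters' processing notes. Totals ran from 901567 to 1269480 counts. Gene positions come from RefSeq's table for GRCm38.p6. TRBV14, the compared groups and the named items (all J and D segments, length classes past the threshold, the 5 largest clonotypes per library, the 5 most abundant shared by all libraries, and the 3 nearest segments) were chosen with earlier results of these data known.

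Composition was tested with clonotypes counted once, in edgeR 4.0.16 (quasi-likelihood, offset the log number of clonotypes) over pairs with at least 10 clonotypes, in the 20 TRBV segments with at least 100 clonotypes in every library. Standard errors were derived from the log2 ratio and its p. Alternatives were TMM, DESeq2 1.42.0, weighting by counts, other filters, clonotypes defined by amino acids, a replicate block, each library left out, and rearrangements at under 1% of their share in another library left out; the 5% version was added after seeing the data.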

Additional observations from a re-analysis of the deposited data

How the results depend on the processing

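Of 320 alternative values over 26 results, 297 were rated as unchanged. Single J segments and lengths were rated on direction and side of the threshold. Differences in means were rated on direction, and those in count or clonotype share also on size. Numbers of calls were rated as similar or not, so single classes could still cross the threshold. The replicate block cannot change a difference in means. Weighting by counts changed most. The TRBD2 difference between genotypes became 22.0 percentage points and that to other segments 6.65, the J segments of TRBV14 called against other segments numbered 1 (4 with each clonotype counted once) and the length classes called 0 (7 otherwise). Under it log2 ratios reversed for TRBJ2-2 (-0.60), TRBJ2-5 (-0.58), length 11 (-0.10) and length 15 (0.070) against other segments, and for TRBJ1-2 between genotypes (-1.19).

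Leaving out each library in turn kept the difference in count share between 0.689 and 1.71 points and that in clonotype share between -0.332 and -0.119. Between genotypes the mean length differed by 0.00663 to 0.0301 residues, the TRBD2 share by -4.63 to -3.19 points and the out-of-frame share by -0.00413 (without Vsig4-deficient library 1) to 0.193 points (without library 2 of that genotype). Against other segments the gaps stayed within -0.256 and -0.251 residues, -5.66 and -4.52 TRBD2 points, and -0.998 and -0.959 V bases. Calls against other segments ran from 3 to 5 J segments and from 7 to 8 lengths, and calls between genotypes stayed at 0 for both.

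Library numbers were not taken as pairs: only 2 pairs exist, and the deviations of same-numbered libraries correlated at 0.0412 over 240 TRBV and TRBJ pairs and at 0.520 over the 20 TRBV segments. The replicate block left the calls of TRBV14 between genotypes at 0 for J segments and 0 for lengths. The amino acid definition could not be applied to out-of-frame rearrangements. With 2 libraries per genotype, no exact test could pass 0.05.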
